A study of Mus musculus with 6 samples.

Results

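Hepatic transcripts of 9 uptake transporter genes were compared between GHRH-KO mice and their normal littermates. The genes are 5 members of the SLCO family (Slco1a1, Slco1a4, Slco1b2, Slco2a1 and Slco2b1) and 4 members of the SLC22 family (Slc22a7, Slc22a27, Slc22a29 and Slc22a30). They were chosen by name among the 18193 genes that have a probe set of their own on the array. Earlier results of these data were known when they were chosen. All 9 were among the 12469 genes bright enough to be tested. RNA was taken from the livers of 3 male GHRH-KO mice, which carry a disruption of the gene for growth hormone-releasing hormone in every tissue, and of 3 male wild-type littermates. The genetic background of both groups was a mixture of C57BL6 and 129SV. Mice of both groups were 10 months old by the methods section and had been fasted for 6 to 8 h. The age is uncertain, since it is not given the same way throughout the sources and the sample labels give none. Each array was hybridized with RNA of a separate animal.

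SLCO genes encode organic anion transporting polypeptides, which carry bile acids, steroid conjugates, thyroid hormones, prostaglandins and many drugs into cells without using ATP. The SLC22 family holds organic anion, organic cation and carnitine transporters, and the 4 members described here belong to its organic anion branch. In the liver such carriers sit mainly on the blood-facing side of hepatocytes, where they take up compounds that are then conjugated and exported into bile or back into blood. In rodents several of these genes are expressed at different levels in males and females, and the temporal pattern of growth hormone secretion is known to set many sex differences in liver gene expression.

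Values are RMA values on the log2 scale, in which each unit is a doubling of signal, and a change is the GHRH-KO mean minus the control mean. A gene was called when its adjusted p from limma lay under 0.05 and its fold change was above 1.5 or below 0.67. Ghrh itself, which is made in the hypothalamus, did not check the genotype in this tissue. Its probe set lay at or under 4.75 in all 6 arrays and differed by -0.04 (SE 0.12, adjusted p = 0.925, limma on all probe sets). That highest Ghrh value serves below as the level of a transcript at background. Hepatocyte markers were high in all arrays, with a log2 summed signal of 16.83 to 16.84 in GHRH-KO livers and 16.77 to 16.83 in control livers. GHRH-KO replicate 5 stood apart in the array controls for RNA integrity, where the 3' probe set of Gapdh exceeded the 5' probe set by 5.27, against 0.149 and 0.282 in the other GHRH-KO arrays and 0.179 to 0.675 in control arrays. The 4 member calls given below were all kept without that array, and also without it and control replicate 2, the array with the next highest Gapdh difference.

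Of the 9 uptake transporter genes, 4 were called. Slc22a27 and Slc22a29 were higher in GHRH-KO livers, and Slco1a1 and Slco2a1 were lower. Both higher calls rest on probe sets whose probes can also hybridize to other transcripts, as given below, so they may not be separate results. Among all genes tested 1.76% were called, 0.786% higher and 0.97% lower. Because the 9 were chosen with earlier results of these data known, their share of calls cannot be tested against that of all genes. The GHRH-KO and control values did not overlap for 6 of the 9 genes, as was the case for 28.4% of all genes. The median change of the 9 genes was -0.09, and that of all genes tested was 0.00. At the level of probe sets, 20 belong to these genes, and 18 of them were tested. Of these 8 were called, 3 higher and 5 lower, where 1.48% of all probe sets tested were called. The 3 higher ones include the probe set shared by Slc22a29 and Slc22a30.

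**Figure D1:**
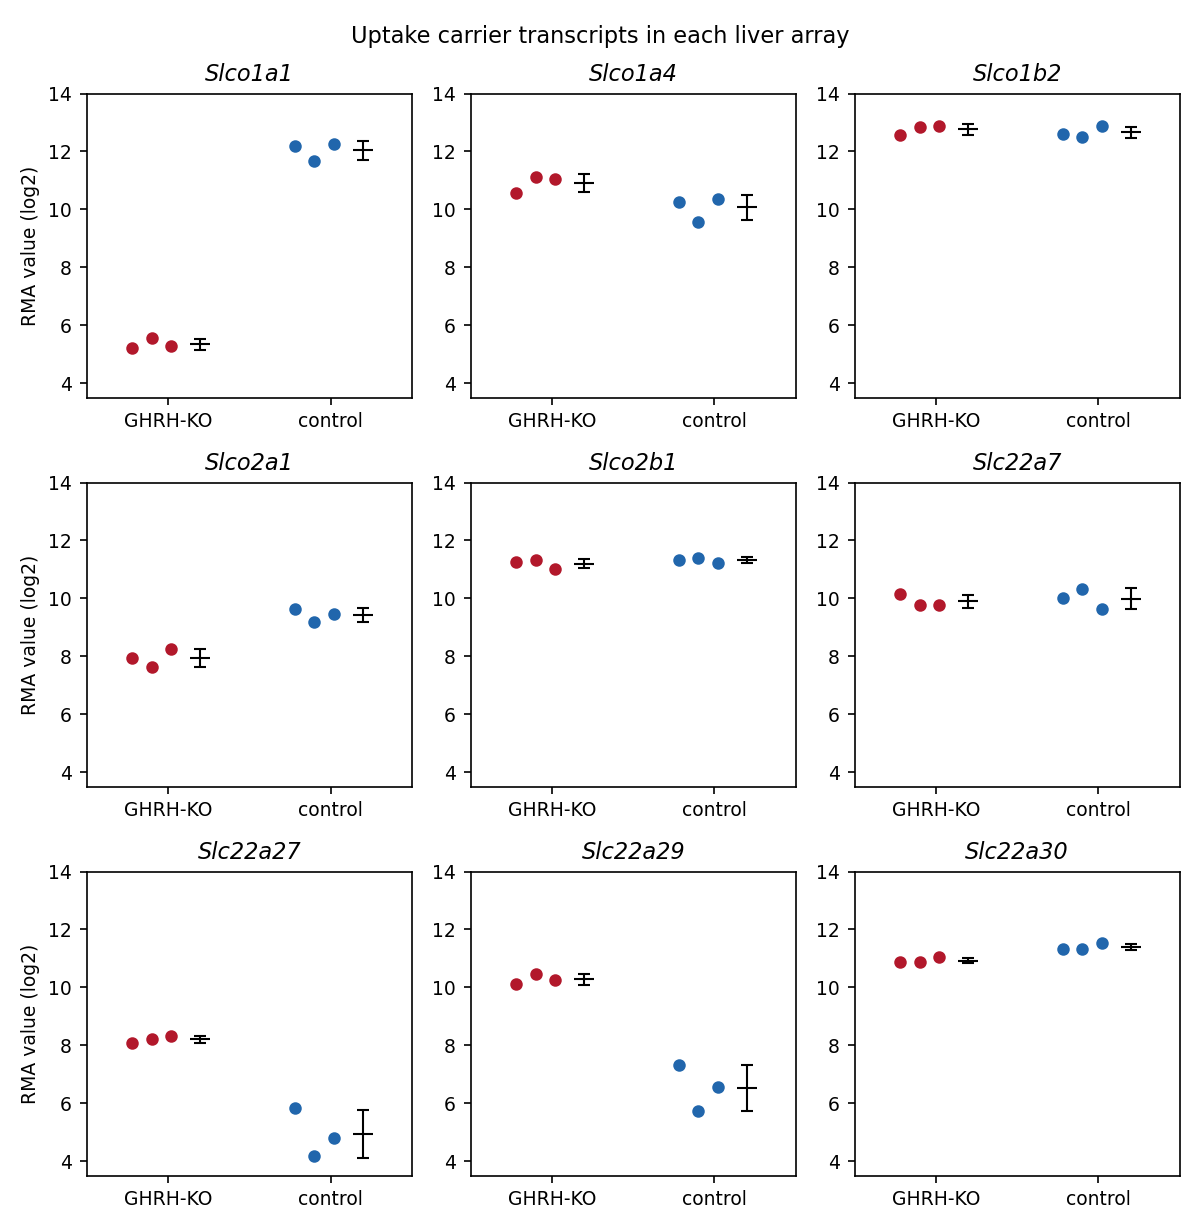
RMA value (log2) of each of the 9 genes in the 3 GHRH-KO arrays (red, left) and the 3 control arrays (blue, right) and, in black, their means with SD. Slco1a1 lies between 5.21 and 5.57 in GHRH-KO livers and between 11.67 and 12.26 in control livers, while Slc22a27 and Slc22a29 run the other way and Slco1b2 and Slc22a7 overlap.

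Slco1a1 encodes Oatp1a1, a carrier of bile acids and steroid conjugates that is known for its higher level in male than in female mouse liver, and its transcript fell further than that of any other of the 9 genes in GHRH-KO livers. Its brightest probe set (1420379_at) read 5.21, 5.57 and 5.27 in GHRH-KO livers, against 12.19, 11.67 and 12.26 in control livers. All 3 GHRH-KO values lay more than 6 log2 units below every control value. The means were 5.35 ± 0.19 in GHRH-KO livers and 12.04 ± 0.32 in control livers (SD, n = 3 each), a change of -6.69 (SE 0.19, 95% interval -7.14 to -6.24), or 103-fold lower in GHRH-KO livers (adjusted p = 1.15e-05, limma). Only 1 of the genes tested fell further. The other Slco1a1 probe set (1449844_at) read 4.72, 4.54 and 4.25 in GHRH-KO livers, against 10.26, 9.63 and 10.34 in control livers. Its GHRH-KO values were all at background, so its change of -5.57 (SE 0.22, adjusted p = 8.95e-05, limma) is given as at least 40.2-fold lower, counted from 4.75. In bulk liver RNA, fewer cells with the transcript and less transcript per cell cannot be told apart.

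The promoter window of Slco1a1 is shown because this gene changed most among the 9. It runs from 250 bases before the RefSeq start site to 50 bases after it, at chr6:141946913-141947212 on the minus strand (GRCm38.p6), with the 50 bases from the start site in capitals.
Slco1a1: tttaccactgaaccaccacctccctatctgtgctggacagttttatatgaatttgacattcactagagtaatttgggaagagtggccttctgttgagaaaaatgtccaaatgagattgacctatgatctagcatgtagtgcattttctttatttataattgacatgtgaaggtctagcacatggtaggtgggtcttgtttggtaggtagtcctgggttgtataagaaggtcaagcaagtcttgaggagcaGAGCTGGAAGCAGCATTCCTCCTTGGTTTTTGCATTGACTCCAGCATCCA
The window was searched on both strands for 4 short motifs, namely TTCNNNGAA (bound by STAT5), GTTAAT (a half-site of HNF1), ATTGAT (the core of the HNF6 site) and CACGTG (the E-box). None of the 4 was found in these 300 bases. Over the 32851 RefSeq promoter windows of this length, TTCNNNGAA occurred in 8.30%, GTTAAT in 7.10%, ATTGAT in 7.54% and CACGTG in 7.15%, and an absent match says only that these letters are not in the window.

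Slco1a4, the next Slco gene on chromosome 6, encodes Oatp1a4, a carrier of digoxin and bile acids that is inducible through the xenobiotic receptor PXR. It read 10.57, 11.12 and 11.05 in GHRH-KO livers, against 10.26, 9.58 and 10.36 in control livers. The groups did not overlap, but the gap between them was smaller than the range within either group. The means were 10.91 ± 0.30 in GHRH-KO livers and 10.07 ± 0.43 in control livers (SD, n = 3 each), with a change of 0.85 (SE 0.25, 95% interval 0.27 to 1.42) and an adjusted p of 0.150 (limma), so the 1.80-fold difference was not called. Set against its neighbour, the change of Slco1a1 was lower than that of Slco1a4 by -7.54 on the log2 scale. An exact two-sided permutation test of that difference over the 6 arrays gave p = 0.1, the smallest value that 3 against 3 arrays allow. The groups of each gene lay apart in opposite directions, so the test could give no other p and decides nothing. This pair was chosen after its values were seen, as was the other pair tested in the same way below, and adjustment over the 2 comparisons leaves the exact p at 0.1.

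Slco1b2 encodes Oatp1b2, the liver-specific carrier of bilirubin conjugates, bile acids and statins. No difference passed the test in any of its 3 tested probe sets. The brightest (1449394_at) read 12.55, 12.86 and 12.88 in GHRH-KO livers, against 12.62, 12.49 and 12.86 in control livers, so the groups overlapped. Its change was 0.10 (SE 0.15, 95% interval -0.25 to 0.46, adjusted p = 0.743, limma). A further probe set (1452494_s_at) read 12.41, 11.88 and 12.47 in GHRH-KO livers, against 12.57, 12.02 and 12.58 in control livers, with a change of -0.14 (SE 0.22). The third (1427826_a_at) read 8.15, 4.92 and 7.67 in GHRH-KO livers, against 8.12, 5.99 and 8.14 in control livers. Here GHRH-KO replicate 5 and control replicate 2 were low, the same arrays whose Gapdh controls differed most between the 3' and the 5' end, and the part of RNA integrity in this probe set was not tested. The remaining 2 probe sets were too dim to be tested, and each changed by -0.06.

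Slco2b1 encodes Oatp2b1, a carrier of sulfated steroids. Its brightest probe set (1433933_s_at) read 11.26, 11.33 and 11.01 in GHRH-KO livers, against 11.34, 11.41 and 11.22 in control livers. The groups overlapped, and the change was -0.12 (SE 0.13, 95% interval -0.43 to 0.18, adjusted p = 0.634, limma). Another probe set of the gene (1454777_at) read 10.04, 9.33 and 9.76 in GHRH-KO livers, against 10.33, 10.52 and 10.17 in control livers. In this one the groups lay apart, and its change of -0.63 (SE 0.20) had an adjusted p of 0.170 (limma) and was not called. The third probe set was dim, at 5.24 to 5.48 in GHRH-KO livers and 5.08 to 5.63 in control livers.

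Slco2a1 encodes the prostaglandin transporter, which clears prostaglandins from the extracellular space for breakdown and is also expressed in endothelial cells. It was lower in GHRH-KO livers. Its brightest probe set (1420913_at) read 7.93, 7.62 and 8.25 in GHRH-KO livers, against 9.63, 9.17 and 9.45 in control livers. Every GHRH-KO value lay below every control value. The means were 7.93 ± 0.31 in GHRH-KO livers and 9.42 ± 0.23 in control livers (SD, n = 3 each), a change of -1.48 (SE 0.20, 95% interval -1.94 to -1.02), or 2.80-fold lower in GHRH-KO livers (adjusted p = 0.0188, limma). The direction held when any 1 array was left out, with changes of -1.64 to -1.33. The adjusted p came out above 0.05, which ended the call, on leaving out GHRH-KO replicate 4 (0.0592), and likewise for control replicate 1 (0.0580) and control replicate 3 (0.0793).

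The other 3 probe sets of Slco2a1 were dimmer and their groups also lay apart. One (1444242_at) read 4.91, 4.84 and 4.81 in GHRH-KO livers, against 5.89, 5.82 and 5.63 in control livers, and was called with a change of -0.93 (SE 0.12, adjusted p = 0.0160, limma). A second (1450032_at) read 4.56, 4.46 and 4.44 in GHRH-KO livers, all at background, against 5.35, 5.16 and 5.72 in control livers. It was called with an adjusted p of 0.0452 (limma) and is given as at least 1.59-fold lower, counted from 4.75. The last (1420914_at) read 4.76, 4.66 and 4.98 in GHRH-KO livers, against 5.34, 5.66 and 5.23 in control livers, and its change of -0.61 was not called (adjusted p = 0.116, limma). Of 12 endothelial markers 11 were tested and 0 were called by limma, with 0 also at an unadjusted p under 0.05. Their log2 summed signal was 12.08 to 12.35 in GHRH-KO livers and 12.10 to 12.39 in control livers, and their median change was 0.10.

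**Figure D2:**
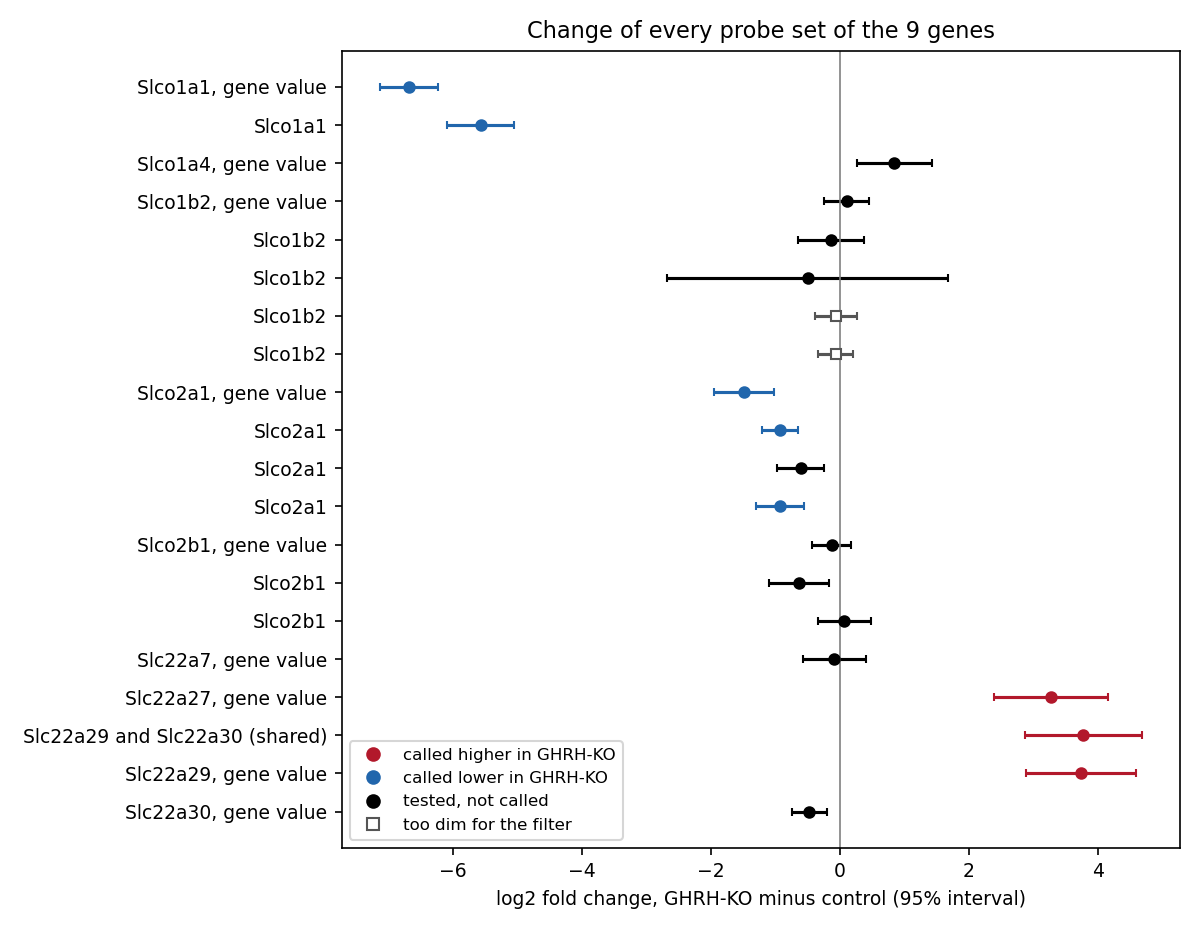
Change of each of the 20 probe sets (log2 fold change, GHRH-KO minus control, with its 95% interval), with the probe set that gives the gene value named so. Both Slco1a1 probe sets lie at -5.57 or lower, the 4 Slco2a1 probe sets lie between -1.48 and -0.61, and the 3 probe sets of Slc22a27 and Slc22a29 lie between 3.28 and 3.78.

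Slc22a7 encodes Oat2, a hepatic organic anion transporter, of which the human form is known to carry cyclic GMP and creatinine. It read 10.16, 9.76 and 9.79 in GHRH-KO livers, against 10.01, 10.34 and 9.63 in control livers. The groups overlapped, and the change was -0.09 (SE 0.21, 95% interval -0.57 to 0.40, adjusted p = 0.852, limma). Its sign turned when control replicate 2 was left out, to 0.09.

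Slc22a27, Slc22a29 and Slc22a30 belong to a group of rodent Slc22 paralogs on chromosome 19. Slc22a29 rose most among the 9 genes. Its own probe set (1425222_x_at) read 10.11, 10.47 and 10.26 in GHRH-KO livers, against 7.32, 5.74 and 6.55 in control livers. Every GHRH-KO value lay above every control value, and the control livers varied more among themselves. The means were 10.28 ± 0.18 in GHRH-KO livers and 6.54 ± 0.79 in control livers (SD, n = 3 each), a change of 3.74 (SE 0.36, 95% interval 2.89 to 4.60), or 13.4-fold higher in GHRH-KO livers (adjusted p = 0.00564, limma). Of all genes tested 9 rose further. The call held without any 1 array, with changes of 3.34 to 4.13 and adjusted p of at most 0.0396 (limma).

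Slc22a27 showed a similar pattern at lower signal. Its only probe set (1419751_x_at) read 8.09, 8.22 and 8.32 in GHRH-KO livers, against 5.82, 4.17 and 4.81 in control livers. Of the control values 1 lay below the background level of 4.75 and another just above it, so the size of the fold is uncertain. The means were 8.21 ± 0.11 in GHRH-KO livers and 4.93 ± 0.83 in control livers (SD, n = 3 each), a change of 3.28 (SE 0.38, 95% interval 2.39 to 4.16), or 9.70-fold higher in GHRH-KO livers by the measured means (adjusted p = 0.0113, limma). Without control replicate 1, the brightest of them, the mean of the control livers lay at background, and the difference was then at least 11.0-fold, counted from 4.75. Leaving out control replicate 3 raised the adjusted p to 0.058 and leaving out GHRH-KO replicate 6 raised it to 0.053, which ended the call, although the change stayed between 2.90 and 3.72 without any 1 array.

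A probe set annotated to both Slc22a29 and Slc22a30 (1451635_at) read 10.73, 11.06 and 10.90 in GHRH-KO livers, against 8.04, 6.38 and 6.95 in control livers. Its change was 3.78 (SE 0.38, adjusted p = 0.00664, limma), and it was not used as the value of either gene. In all 3 of these probe sets control replicate 1 was the highest of the control livers and control replicate 2 the lowest. Their deviations from the group means differed from each other by at most 0.19 in any array. The names of the probe sets for Slc22a27 and Slc22a29 end in _x_at, which marks probes that can also hybridize to other transcripts, so that signal of these paralogs cannot be told apart with certainty and the values of each gene are uncertain.

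Slc22a30, the next gene after Slc22a29, gave a small difference of the opposite sign. Its own probe set (1436162_at) read 10.87, 10.87 and 11.04 in GHRH-KO livers, against 11.34, 11.34 and 11.52 in control livers. The groups lay apart and the arrays of each group were close together. The means were 10.93 ± 0.10 in GHRH-KO livers and 11.40 ± 0.11 in control livers (SD, n = 3 each), a change of -0.47 (SE 0.12, 95% interval -0.75 to -0.20) with an adjusted p of 0.109 (limma), which was not called. The change of Slc22a29 exceeded that of Slc22a30 by 4.21 on the log2 scale (exact two-sided permutation test, p = 0.1, the smallest that the design allows). The groups of each gene already lay apart in opposite directions, so the test could give no other p and decides nothing. The uncertainty in the Slc22a29 signal also holds for this difference.

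The promoter windows of Slc22a29 (chr19:8218851-8219150) and Slc22a30 (chr19:8405056-8405355), both on the minus strand of GRCm38.p6 and taken from RefSeq, are shown because the probe sets of these neighbouring paralogs gave different changes, with the uncertainty in the Slc22a29 signal given above. Capitals mark the 4 stretches of 12 or more aligned bases that are identical in both.
Slc22a29: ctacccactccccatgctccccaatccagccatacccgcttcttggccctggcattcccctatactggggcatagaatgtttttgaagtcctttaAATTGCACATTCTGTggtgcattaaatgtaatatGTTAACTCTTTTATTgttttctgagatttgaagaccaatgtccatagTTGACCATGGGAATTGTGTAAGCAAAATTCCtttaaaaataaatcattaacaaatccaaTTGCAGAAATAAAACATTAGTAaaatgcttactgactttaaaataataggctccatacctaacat
Slc22a30: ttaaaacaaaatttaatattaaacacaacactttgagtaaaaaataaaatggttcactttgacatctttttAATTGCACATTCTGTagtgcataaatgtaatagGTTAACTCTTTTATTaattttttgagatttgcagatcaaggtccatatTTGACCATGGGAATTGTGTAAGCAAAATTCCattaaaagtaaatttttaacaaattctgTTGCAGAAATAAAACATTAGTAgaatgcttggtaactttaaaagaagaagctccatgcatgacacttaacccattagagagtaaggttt
When the windows were aligned, 212 of 325 positions held the same base (65.2%), and 83 bases lay in the marked stretches, the longest of 31 bases. Windows of other pairs of the 9 genes were 35.1% to 46.7% identical. Slc22a29 held 1 match to GTTAAT on the other strand, 29 to 24 bases before the start site, and Slc22a30 held none of the 4 motifs.

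The window of Slc22a27 (chr19:7965978-7966277, minus strand), with the 50 bases from the start site in capitals, is shown as that of the other gene that rose.
Slc22a27: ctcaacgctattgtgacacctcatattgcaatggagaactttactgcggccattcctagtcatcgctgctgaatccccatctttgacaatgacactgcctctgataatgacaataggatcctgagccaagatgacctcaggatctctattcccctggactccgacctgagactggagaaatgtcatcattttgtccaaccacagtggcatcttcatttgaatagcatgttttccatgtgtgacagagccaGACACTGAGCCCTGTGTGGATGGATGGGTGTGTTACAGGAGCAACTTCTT
It held none of the 4 motifs, and neither did those of Slco1a4 and Slco2a1. The window of Slco1b2 held TTCNNNGAA, 206 to 198 bases before the start site, and GTTAAT, 66 to 61 bases before it. Of 3 windows of Slco2b1, 2 held TTCNNNGAA. Windows were at hand for 8 of the 9 genes, all but Slc22a7, and other start sites of Slc22a27 and Slc22a29 are not covered.

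**Figure D3:**
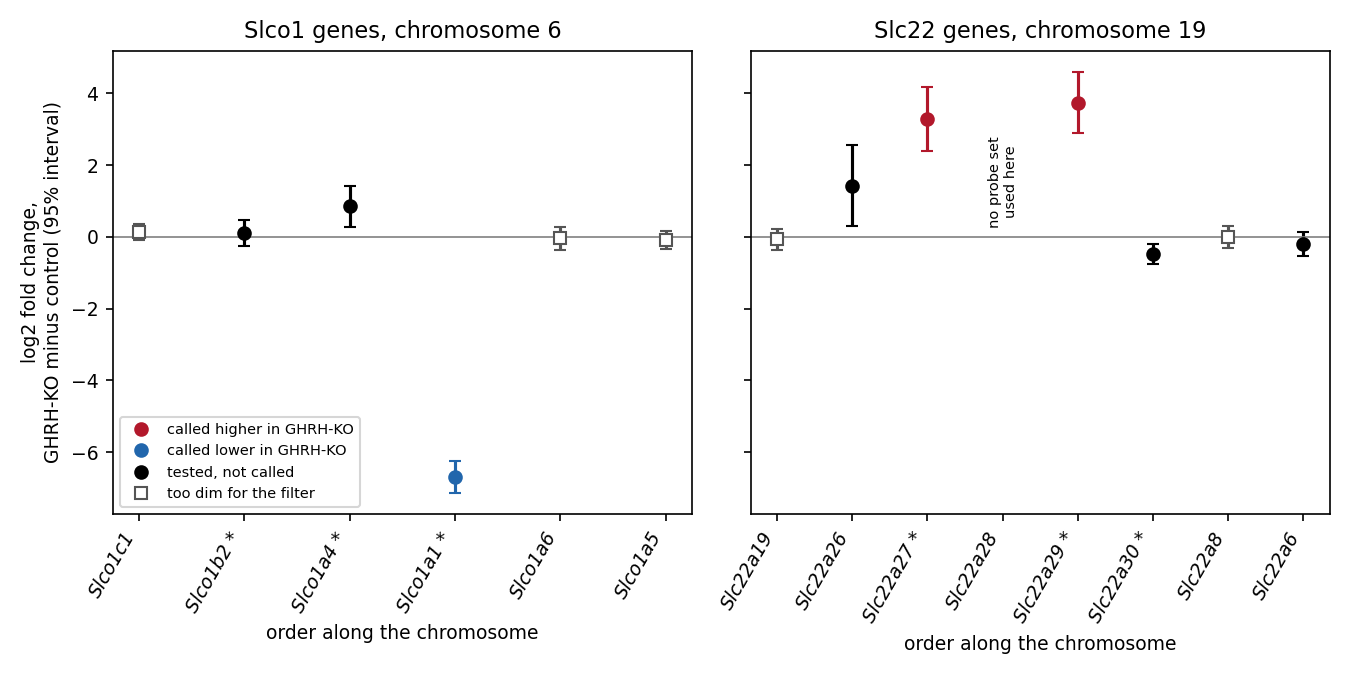
Change (log2 fold change, GHRH-KO minus control, with its 95% interval) of Slco and Slc22 genes in their order along chromosomes 6 and 19, evenly spaced and with other genes left out. A star marks the genes described here. Slco1a1, at -6.69, lies beside Slco1a4, at 0.85, and Slc22a29, at 3.74, lies beside Slc22a30, at -0.47.

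On chromosome 6 the Slco1 genes follow each other as Slco1c1, Slco1b2, Slco1a4, Slco1a1, Slco1a6 and Slco1a5 in the RefSeq gene order. Slco1c1, Slco1a6 and Slco1a5 were too dim to be tested in liver, and their changes were 0.15, -0.05 and -0.08. On chromosome 19 Slc22a26, Slc22a27, Slc22a28, Slc22a29 and Slc22a30 are consecutive protein-coding genes, and no probe set of Slc22a28 was used here. Slc22a26 read 7.25, 5.32 and 5.43 in GHRH-KO livers, against 4.60, 4.67 and 4.45 in control livers. Its control values were at background, and GHRH-KO replicate 4 lay far above the other 2 GHRH-KO arrays. The difference, at least 2.38-fold counted from 4.75 and at least 1.55-fold without GHRH-KO replicate 4, was not called (adjusted p = 0.191, limma). Slc22a6 and Slc22a8, the kidney organic anion transporters that follow in the cluster, lay at 4.19 to 4.63 in GHRH-KO livers and at 4.15 to 5.03 in control livers.

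**Figure D4:**
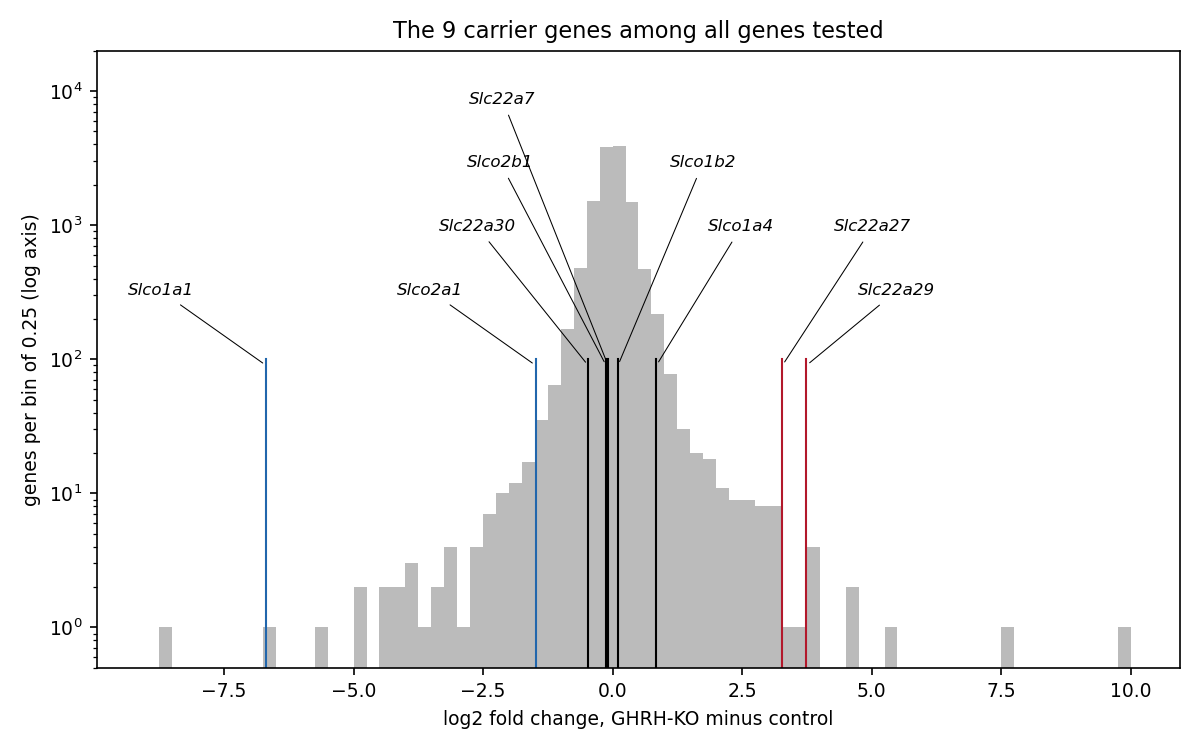
Distribution of the change (log2 fold change, GHRH-KO minus control) of the 12469 genes tested, as genes per bin on a log axis, with the 9 uptake transporter genes as lines (red called higher, blue called lower, black not called). Slco1a1 and both called Slc22 genes lie in the thin tails, while the 5 uncalled genes lie between -0.47 and 0.85.

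Other members of both families did not pass the test. Of 10 other Slco genes only 2 were bright enough to be tested, 0 were called by limma, 0 had an unadjusted p under 0.05, and the median change was 0.03. Of 20 other Slc22 genes 12 were tested and 0 were called by limma, with 4 at an unadjusted p under 0.05, all higher in GHRH-KO livers, and a median change of 0.09. Among all genes tested 9.15% were higher and 10.1% lower at that unadjusted p. One of those 4 was Slc22a5, which encodes the carnitine transporter Octn2 and read 9.34, 10.35 and 9.75 in GHRH-KO livers, against 8.74, 8.81 and 9.01 in control livers. The groups lay apart, and its change was 0.96 (SE 0.25, adjusted p = 0.119, limma). Under the other settings the change was 0.40 to 1.20, with adjusted p of 0.0477 to 0.264 (limma), so both varied with the setting.

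Among 16 tested genes of 18 other hepatic carriers of drugs and bile acids, 1 was called higher and 1 lower, against 0.786% and 0.97% of all genes. The median change was 0.11. At an unadjusted p under 0.05 (limma) were 5 higher and 4 lower, against 9.15% and 10.1% of all genes. The largest changes of the list were those of Abcc4 (1.87, adjusted p = 0.0708, limma) and Abcb1a (1.56, adjusted p = 0.109, limma). These were not called in the main fit, but they were with array weights (adjusted p of 0.0246 and 0.0407, limma). Slc10a1 encodes NTCP, the sodium-dependent bile acid uptake carrier of hepatocytes, and read 11.90, 11.88 and 12.17 in GHRH-KO livers, against 13.02, 12.73 and 12.83 in control livers. All GHRH-KO values were lower, with a change of -0.88 (SE 0.14, adjusted p = 0.0310, limma), but this call was lost whichever 1 of the 6 arrays was left out (adjusted p = 0.0657 to 0.104, limma). Abcb1b encodes a P-glycoprotein that exports drugs, and read 5.52, 5.83 and 5.26 in GHRH-KO livers, against 4.20, 4.14 and 3.77 in control livers. The control values were all at background, so the difference is given as at least 1.73-fold higher in GHRH-KO livers, counted from 4.75 (adjusted p = 0.0155, limma). Leaving out control replicate 2 (adjusted p of 0.0657) or control replicate 3 (adjusted p of 0.058) ended this call.

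Because Slco2a1 carries prostaglandins, the genes of prostaglandin synthesis, breakdown and reception were counted as well. Of 19 listed 11 were tested, and the median change was 0.21. Of those tested 0 were called higher and 1 lower, against 0.786% and 0.97% of all genes. At an unadjusted p under 0.05 (limma) were 2 higher and 1 lower, against 9.15% and 10.1% of all genes. The called gene was Ptgds, which encodes the lipocalin-type prostaglandin D synthase. It read 6.66, 6.82 and 6.86 in GHRH-KO livers, against 7.66, 7.69 and 7.42 in control livers, a change of -0.81 (SE 0.13, adjusted p = 0.0310, limma). The groups lay apart, and the call was lost whichever 1 array was left out (adjusted p = 0.0615 to 0.110, limma).

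Of 19 genes known to regulate uptake carriers in liver, such as nuclear receptors and growth hormone signalling genes, 17 were tested. Of those tested 0 were called higher and 1 lower, against 0.786% and 0.97% of all genes, and the median change was -0.36. The called gene was Ghr, the growth hormone receptor, which read 11.60, 11.86 and 11.45 in GHRH-KO livers, against 12.72, 12.91 and 12.87 in control livers. The groups lay apart, with a change of -1.20 (SE 0.14, adjusted p = 0.0121, limma). This call ended when GHRH-KO replicate 6 was left out (adjusted p of 0.051), and likewise control replicate 2 (0.061) or control replicate 3 (0.060). A second Ghr probe set (1451501_a_at) differed far more, at 8.46, 8.66 and 8.25 in GHRH-KO livers, against 11.66, 11.49 and 11.64 in control livers. Its change was -3.14 (SE 0.14, adjusted p = 1.46e-04, limma), and the mean over all 3 Ghr probe sets changed by -1.77, so the size of the Ghr difference varied with the probe set.

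At an unadjusted p under 0.05 were 2 of the 17 regulators higher, against 9.15% of all genes, and 6 lower, against 10.1% of all genes. Beside Ghr, the lower ones were Onecut1, which encodes HNF6, with a change of -1.48 (SE 0.37, adjusted p = 0.113), Bcl6, a repressor with a higher level in male mouse liver, with -1.38 (SE 0.26, adjusted p = 0.0603), Nr0b2 with -0.63, Ahr with -0.51 and Nr1i2, the gene of PXR, with -0.41 (all limma). The higher ones were Stat5b with 0.57 and Ppara with 0.48. Cux2, a repressor with a higher level in female mouse liver, changed by -0.11 (SE 0.13, adjusted p = 0.681, limma). None of these passed the adjusted test except Ghr, but Onecut1 was called by another of its probe sets, the one of lowest p (-1.85, adjusted p = 0.0409), and Bcl6 was called without GHRH-KO replicate 4 (-1.69, adjusted p = 0.00874, limma), as it was with array weights and with a trended, robust variance.

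Markers of cell types were counted for the same livers, and 0 were called by limma among those tested, namely 7 of hepatocytes, 8 of Kupffer cells, 8 of stellate cells, 3 of cholangiocytes, 1 of lymphocytes, 2 of neutrophils and 3 of kidney proximal tubule. At an unadjusted p under 0.05 were 1 Kupffer, 2 stellate and 1 neutrophil marker, all higher in GHRH-KO livers, and 1 cholangiocyte marker, lower, beside the shares of 9.15% higher and 10.1% lower among all genes. The log2 summed Kupffer signal was 11.68 to 12.85 in GHRH-KO livers and 11.37 to 12.65 in control livers. The ranges did not overlap for neutrophils, at 7.03 to 7.63 in GHRH-KO livers and 6.89 to 7.01 in control livers, or for lymphocytes, at 7.26 to 7.33 in GHRH-KO livers and 6.99 to 7.20 in control livers. Those of hepatocytes, given above, were also apart, but only narrowly. Their lowest GHRH-KO value was 16.83 and their highest control value 16.829. At or under the background level, by their mean over the 6 arrays, were 6 of 7 lymphocyte, 5 of 6 neutrophil and 4 of 6 kidney markers. The part of these cells in the transporter values was not tested.

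The genes whose values followed each called transporter most closely over the 6 arrays were found by Pearson's r, given as a description. The difference between the groups enters each r, and all genes share the same arrays. For Slco1a1 they were Cyp4f14 (r = 0.999), Cks1b (r = 0.997) and Hsd3b5 (r = 0.996), the last a steroid-metabolizing enzyme known for its male-biased expression in mouse liver, which changed by -8.56. For Slco2a1 they were Slc10a1 (r = 0.993), Rangap1 (r = 0.991) and Zfp105 (r = 0.990). For Slc22a27 they were Cyp2c39 (r = 0.998), Pigu (r = 0.997) and Slc22a29 (r = 0.997), and for Slc22a29 they were Serpinb8, Cyp2c39 and Mtap (r = 0.997 each). Rangap1 and Zfp105 were not called, at changes of -0.60 and -0.33, and neither were Pigu and Mtap, at changes of 0.16 and 0.51. A high r here therefore does not mean a large change.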

How the data were processed

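Affymetrix Mouse Genome arrays were hybridized with liver RNA, 1 animal per array, from 3 GHRH-KO males and 3 normal male littermates. The authors summarised the probe sets by RMA (robust multichip average), which corrects background and quantile-normalizes the arrays, and log2 values are what they deposited. The RMA version is not given in the sources used here, and no slide or scan batch was given. The values covered 45101 probe sets, ran from 2.53 to 14.7, and had array medians of 4.95 to 4.99. Correlations between arrays were 0.973 to 0.994.

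After removal of the 64 array controls, the brightest 25145 probe sets by mean value were kept, the number that the study's methods kept by their own detection filter. The contrast of GHRH-KO with control was fitted in limma 3.58.1 (lmFit and eBayes, no covariates; R 4.3.3), with Benjamini-Hochberg adjustment over these probe sets and the threshold of the methods (FDR 0.05, fold change above 1.5 or below 0.67). A gene's value is its brightest probe set annotated to no other gene. Of the probe sets other than controls 34945 had 1 gene, 932 several and 9160 none. With 3 arrays a group, precision is limited by their number, and an exact permutation test cannot go below p = 0.1. The limma fit was checked on simulated data with known changes. The simulated noise was independent between probe sets, so the check does not cover deviations that probe sets of an array share.

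The members and lists were chosen with earlier results of these data known. The text names the 9 members, called genes of each list (at most 4), and the 3 genes most like each called member. Slc22a5, Slc22a26, Abcc4, Abcb1a, the uncalled regulators and the dim neighbours were named after their values were seen. The highest Ghrh value was likewise taken as background level after the values were seen. Promoter windows and gene order came from RefSeq tables (GRCm38.p6), and matplotlib 3.10.9 (Python 3.11.15) drew the figures. Alternatives were other filters, normalizations, variance models, array weights, probe set rules and left-out arrays. Leaving out control replicate 2 and GHRH-KO replicate 5 together was added after seeing the data.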

Additional observations from a re-analysis of the deposited data

Results flagged for a closer look

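GHRH-KO replicate 5 exceeded every control array in the difference between the 3' and 5' probe sets of 2 array controls that no comparison uses. The difference was 5.27 for Gapdh in that array, against 0.179 to 0.675 in control arrays, and 2.51 for beta-actin, against 0.878 to 1.31 in control arrays (log2). Without this array the changes were -6.80 for Slco1a1, -1.33 for Slco2a1, 3.27 for Slc22a27 and 3.65 for Slc22a29, and all 4 calls were kept.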

How the results depend on the processing

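Over the 9 genes and the counts of calls, 219 values were recomputed under another setting, of which 191 were taken as the same. For a gene this meant the same direction and the same side of the threshold. For a count it meant a value not far from the main one, for example 71 or 128 against 98 genes called higher. All 9 genes were called or not called as before under the other filters, normalizations, variance model and array weights. Leaving out 1 array, which leaves 2 arrays in a group and lets limma pool the spread, gave changes of 2.90 to 3.72 for Slc22a27 and -1.64 to -1.33 for Slco2a1, each with lost calls given above. It gave 1 to 2 of the 9 genes called higher and 1 to 2 lower. Over all genes it gave 36 to 93 called higher and 46 to 95 lower, against 98 and 121 with all arrays. Array weights raised those counts to 248 and 288, and leaving out control replicate 2 and GHRH-KO replicate 5 together gave 42 and 64; the cause of these shifts was not tested. Genes whose change was small against its error turned sign, namely Slc22a7 without control replicate 2 (0.087, over a range of -0.268 to 0.087 without any 1 array) and without both arrays (0.157), and Slco1b2 as the mean of its probe sets (-0.178) and without both arrays (-0.0254). Without probe sets ending in _x_at or _s_at, 0 of 7 genes were called higher, because Slc22a27 and Slc22a29 then have no value, and Slco2b1 changed by -0.63. The Slco2a1 probe set with the lowest p changed by -0.93 instead of -1.48. For 34 further genes, those of the carrier, prostaglandin and regulator lists at an unadjusted p under 0.05, Cux2 and the genes most like a member, 538 of 575 values kept direction and call, 28 lost a call and 9 gained one. No paired analysis was made. The animals were littermates, but the labels used here do not say which of them share a litter.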
